A study of Mus musculus with 2 samples.

Results

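The 9 genes described here are radial glia and neural stem cell markers: Nes, Vim, Fabp7, Prom1, Pax6, Msi1, Msi2, Cd24a and Fut4. They were taken by gene name from 2 scanner files, with every non-control probe that carried one of these names. This gave 13 probes on 14 spots of each array, out of 55674 probes and 36493 gene names in all. The cells of both samples, neural stem and progenitor cells (NSPCs), came from mouse embryonic stem cells by way of embryoid bodies (EBs). They were grown as neurospheres, floating balls of progenitors and their progeny, and were tertiary neurospheres at passage 2, taken on day 18 of culture counted from the EBs. One group, with 1 array, was the control for overexpression, and the other, also with 1 array, overexpressed the microRNA miR-153. What the control construct was, and the line of the stem cells, are not given in the sources used here. With 1 array a group there was no test, and no difference below has a replicate check.

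Radial glia are the stem cells of the developing brain. Their long fibre spans the wall of the neural tube, they divide at the ventricle, and they make neurons first and glia later. Nestin and vimentin are the intermediate filament proteins of that fibre, FABP7 (brain lipid-binding protein) carries fatty acids in its cytoplasm, and the transcription factor PAX6 is needed for neuron production by radial glia of the dorsal forebrain. The Musashi proteins bind messenger RNA and hold back its translation in progenitors. Prominin-1 (CD133), CD24 and the Lewis X sugar made by fucosyltransferases such as FUT4 are surface antigens with which neural stem and progenitor cells are sorted. No marker of this kind belongs to stem cells alone. Prominin-1 and CD24 are also found on ependymal cells, CD24 on young neurons, vimentin in mesenchyme and FABP7 in astrocytes.

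The microRNA that was overexpressed and the probes that measured the markers are shown first. The mature miR-153 forms of RefSeq (GRCm38.p6, chr12, plus strand) are printed with bases 2 to 8, the seed that pairs with target messages, in capitals.
mmu-miR-153-3p, chr12:117250860-117250881: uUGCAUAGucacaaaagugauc
mmu-miR-153-5p, chr12:117250821-117250843: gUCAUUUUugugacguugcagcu
Nes, Vim, Fabp7, Msi2 and Cd24a had 1 probe each, so a second probe was available only for the other 4 genes. The probes below, printed whole in lower case with no part marked, are those from the coding part of the messages of these 4 genes. They are read 5′ to 3′ along the message, as the array files give them.
Prom1 (minus strand, chr5:44397410-44397469): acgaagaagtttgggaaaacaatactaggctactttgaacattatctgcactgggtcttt
Pax6, brighter probe (plus strand, chr2:105536454-105536513): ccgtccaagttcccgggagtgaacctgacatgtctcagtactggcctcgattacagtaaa
Pax6, dimmer probe (plus strand, chr2:105524098-105524949): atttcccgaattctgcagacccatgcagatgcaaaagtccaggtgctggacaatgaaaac
Msi1 (plus strand, chr5:115890516-115890575): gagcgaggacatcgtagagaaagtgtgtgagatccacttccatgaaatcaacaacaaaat
Fut4 (minus strand, chr9:14555189-14555248): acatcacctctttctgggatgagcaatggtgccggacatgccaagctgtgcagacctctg
Probe positions are on mm9, the build named in the array files, and count from 1. The 60 bases of the dimmer Pax6 probe cover 852 bases of genome, so 792 bases that are not in the probe lie between its ends. This probe therefore matches in full only Pax6 messages in which the parts it spans are joined. The brighter and the dimmer Pax6 probe need not read the same messages. All 13 probes were 60 bases long, with a GC content of 35.0% to 55.0%, and no other probe of the array had the sequence of any of them. The DNA heptamer CTATGCA, the complement of the miR-153-3p seed, was searched on both strands. It was in 0 of the 13 probes and in 0.621% of all probes of that length. The probes are short windows of the messages and say nothing of sites elsewhere in them.

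The control array had 52.5% of its non-control spots well above background, the miR-153 array had 55.6%, and 0 spots were saturated. Each array was scaled to its 75th percentile of signal, 435 intensity units for the control and 549 for miR-153. A level below is log2 of the signal minus log2 of that percentile, and a difference is the level on the miR-153 array minus that on the control array. Of 20490 genes well above background on both arrays, 20.3% differed by 2-fold or more. Of all 20490, 9.21% were higher with miR-153 by that much and 11.1% were lower. Of the genes past 2-fold, 45.4% were higher, or 64.9% when the arrays were scaled on spike-in RNA, which added 0.24 to every difference. The median difference of all genes was -0.11, and 0.14 under that scaling. Repeat spots of a probe had a pooled SD of 0.13 for this difference (288 probes), and different probes of a gene had a pooled SD of 0.46 (3442 genes).

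The markers were present on both arrays and did not go one way. Prom1 was 3.35-fold higher on the miR-153 array. Nes was 1.94-fold lower, Vim 1.64-fold lower and Pax6 1.61-fold lower, all short of the 2-fold rule. Fabp7, Msi1, Msi2 and Cd24a were within 1.24-fold of the control, and Fut4 was not well above background on either array. Of the 9 genes, 8 were well above background on both arrays. Of those 8, 1 (12.5%) was past 2-fold, against 20.3% of all genes. It was higher with miR-153, where 9.21% of all genes were, and 0 markers were lower, where 11.1% of all genes were. A count of 1 among 8 is near that background. Their median difference was 0.11, against -0.11 for all genes, and 5 of the 8 were above 0, against 43.9% of all genes.

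**Figure D1:**
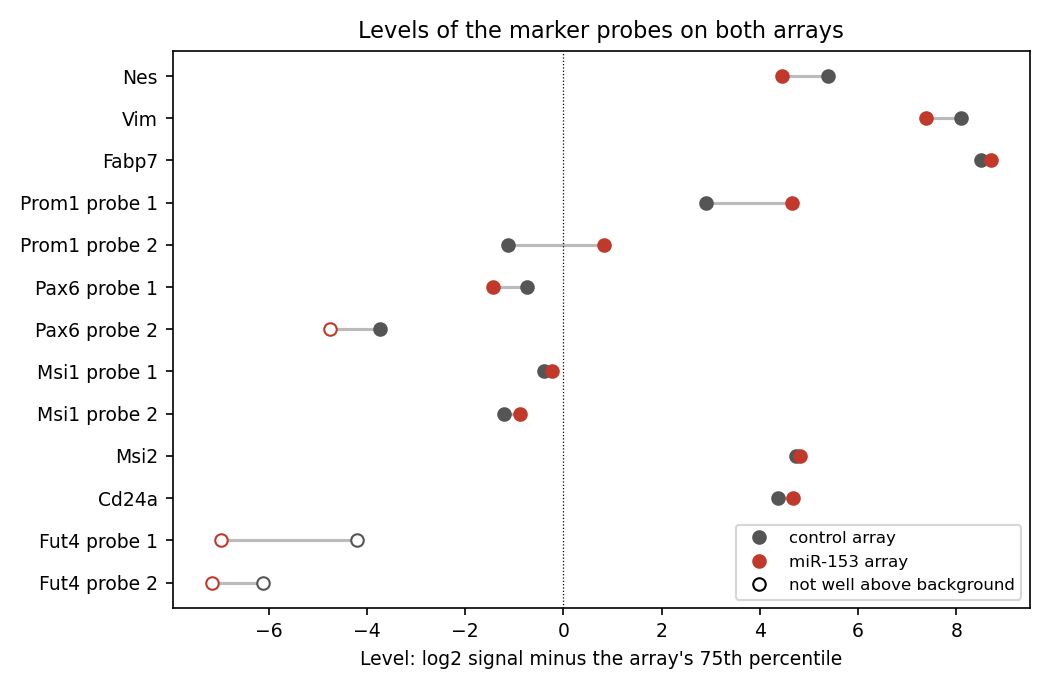
Level of each of the 13 marker probes (log2 signal minus the 75th percentile of the array) on the control array (grey) and the miR-153 array (red), with open circles for probes not well above background on that array. Both Prom1 probes lie to the right on the miR-153 array, Nes, Vim and Pax6 lie to the left, and both Fut4 probes are open on both arrays. Levels of different probes are not comparable with each other, only the 2 arrays within a row.

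Both filament genes of the radial fibre were lower on the miR-153 array. Nes gave a signal of 18255 units on the control array against 11887 on the miR-153 array, from a probe at chr3:87784303-87784362 (plus strand). Its levels were 5.39 and 4.44, a difference of -0.95 with a standard error of 0.20 from the scanner's own error model. That difference was larger than the spread of repeat spots and than the SD between probes of a gene. It ranged from -0.96 to -0.67 over 11 settings, so it stayed below 0 and never reached 2-fold. Among all measured genes 12.0% had a lower difference.

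Vim, whose protein forms filaments together with nestin, was read by a probe at chr2:13504232-13504291 (plus strand). It gave 119666 units on the control array against 91923 on the miR-153 array, levels of 8.10 and 7.39. The difference was -0.72 (standard error 0.20), and 18.9% of all genes lay lower. This value depended on the scaling. The brightest of 8 equal classes of genes had a median difference of -0.43, and of the 183 genes at least as bright as Vim, itself included, 6 were above 0. With quantile normalization or a lowess correction on level, Vim stood at -0.06. Nes lies in the same class and kept -0.72 and -0.67 under those settings.

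Other intermediate filament genes divided. Of 11 on the list, 9 were measured on both arrays, of which 2 were past 2-fold upward and 3 downward, and their median was -0.29. Of all genes, 9.21% were past 2-fold upward and 11.1% downward, with a median of -0.11. Ina, which encodes a filament of developing neurons, was at 2.36, and Nefh, of mature axons, at 1.82. With normexp background correction Nefh, read by a dim probe, came to 1.0, just short of 2-fold before rounding, and 1 gene was left past it upward. Lmna, the gene of nuclear lamins A and C, was at -1.77 and Nefm, of axons, at -1.74, while Nefl was at -1.32. Gfap, the filament gene that astrocytes and adult stem cells use in addition to Vim, was dim, with levels of -2.72 and -2.49. Its difference of 0.23 became -0.02 with normexp. The ratio of Ina to Vim was 8.44-fold higher with miR-153, a gap of 3.08 that ranged from 2.44 to 3.32 over 11 settings because Vim itself moved with them.

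Fabp7 was read by a bright probe, with 158716 units on the control array against 228548 on the miR-153 array (chr10:57508039-57508098, plus strand). Its levels were 8.51 and 8.70, a difference of 0.19 with a standard error of 0.20. The difference was thus below its own technical error and below the SD between probes. It grew under the settings that lift bright genes, to 0.67 with quantile normalization and to 0.96 with lowess, which still missed 2-fold. Of the 32 genes at least as bright as Fabp7, itself included, 3 were above 0, and their median was -0.33. Within the bright class of Nes and Vim, 82.7% of genes had a lower difference than Fabp7.

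Fabp5, the epidermal relative of Fabp7 that progenitors also express, was bright as well and stood at -1.30. It came to -0.65 as its value nearest to 0 over the settings. The ratio of Fabp7 to Fabp5 was 2.82-fold higher with miR-153, and the gap of 1.49 kept between 1.31 and 1.63 over 11 settings. A shift common to all genes cancels in this gap, and each gene had a single probe. Only normexp, quantile normalization and lowess could therefore move it. Fabp3, of heart and muscle, was measured at 0.76, and the other 4 genes of that family on the list (Fabp1, Fabp2, Fabp4 and Fabp6) had no probe well above background.

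Prom1 was the single marker past 2-fold, and its probes gave like values. The brighter probe, at chr5:44384861-44384920 (minus strand), gave 3264 units on the control array against 13781 on the miR-153 array, levels of 2.91 and 4.65. Its difference was 1.74 (standard error 0.20). The coding probe printed above gave 199 units on the control array against 972 on the miR-153 array, levels of -1.13 and 0.82, and a difference of 1.95 (standard error 0.21). These readings from separate parts of the message differed by less than the SD between probes. Over the settings the gene ranged from 1.73 to 1.99, always past 2-fold, and the coding probe was at 1.62 with normexp. Among all measured genes 97.6% had a lower difference than the brighter probe. Prom2, the other prominin gene, was not well above background on either array.

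Cd24a, which encodes a small lipid-anchored surface glycoprotein, was little apart between the arrays. Its probe at chr10:43303706-43303765 (plus strand) gave 8967 units on the control array against 14087 on the miR-153 array, levels of 4.36 and 4.68. The difference was 0.32 (standard error 0.20), below the SD between probes, and reached 0.56 with spike-in scaling. Although Prom1 and Cd24a are both used to sort stem and ependymal cells, their ratio differed 2.69-fold between the arrays, with a gap of 1.31 to 1.53 over the settings. Scaling each array by a constant cannot move this gap.

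Markers of ependymal cells, the ciliated cells that line the ventricle and carry both antigens, were higher as well. Of 10 on the list, 6 were measured on both arrays and all 6 were above 0, 3 of them past 2-fold, around a median of 1.10. Of all genes, 43.9% were above 0 and 9.21% past 2-fold upward, with a median of -0.11. Fam183b stood at 2.73, Dynlrb2 at 1.79 and Cfap126 at 1.23, all 3 genes of motile cilia. Foxj1, which switches on the motile cilium programme, was at 0.78, or 1.02 with spike-in scaling, under which all 6 list members were past 2-fold. Spike-in scaling raised every difference, and 2840 of 20490 genes were then past 2-fold upward, against 1887 without it. The signals of the 6 ependymal genes, summed only to set one array against the other, came to 13.1 times the 75th percentile with miR-153 against 3.55 times in the control. Fam183b alone gave 7.89 and 1.19 of these, and without it the sums were 5.22 and 2.37. Ccdc153, Tmem212 and Spag6 had no probe well above background, and Dnah11 had one only with miR-153, with no bound above 1. The part of these cells in the Prom1 value was not tested. In bulk RNA, more cells of a type and more RNA per cell cannot be told apart.

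Fut4 had no measurable level. Its probe at chr9:14553224-14553283 gave 23.5 units on the control array against 4.39 on the miR-153 array, and the coding probe gave 6.27 and 3.84. None of these spots was well above background, so no fold is given. The gene that makes Lewis X in most brain cells, Fut9, was measured, at levels of 0.15 and 0.70. Its difference of 0.55 was accompanied by 0.15 on a dimmer probe. Of 9 other fucosyltransferase genes, 7 were measured on both arrays, with a median of 0.24 and a range of -0.31 to 0.55. Of these 7, 0 were past 2-fold, against 20.3% of all genes.

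Other surface markers used on neural stem cells held members past 2-fold downward. Of 13 listed, 12 were measured, 5 were lower by 2-fold or more and 0 higher, and the median was -0.60, against 11.1% lower and a median of -0.11 for all genes. With spike-in scaling 3 were lower and 2 higher, around a median of -0.36. Of 20490 genes, 1537 were lower and 2840 higher under that scaling, with a median of 0.14. The integrin genes Itga5 (-2.26, or -1.37 with normexp), Itga6 (-1.17, or -0.93 with spike-in scaling and -0.82 with lowess) and Itgb1 (-1.12, or -0.88 with spike-in scaling), whose products hold progenitors to laminin and fibronectin, were among the lower. The tetraspanin gene Cd9 was at -1.70, and Cd44, the hyaluronan receptor gene, at -1.32. Egfr, the receptor for the growth factor in which neurospheres are usually grown, was at -0.45, or -1.20 as the mean of its probes. Above 0 were 4 of the 12, with Vcam1, an adhesion receptor gene of adult stem cells, the highest at 0.82 (1.06 with spike-in scaling).

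Both Pax6 probes gave lower values on the miR-153 array, though they need not read the same messages. The brighter probe was spotted on 2 places of each array. The control array gave 267 and 252 units, and the miR-153 array gave 219 and 188 units at the same places. The mean levels were -0.75 and -1.43, a difference of -0.69 (standard error 0.15), and the single spots gave -0.62 and -0.76. The difference exceeded the SD of repeat spots and that between probes, which both leave out differences between cultures. It ranged from -0.70 to -0.45 over 10 settings, where the value nearest to 0 is within the SD between probes, and 20.0% of all genes lay lower.

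The dimmer Pax6 probe gave 32.6 units on the control array against 20.4 on the miR-153 array, where it was not well above background. Its difference was -1.02 (standard error 0.43), or 2.02-fold higher on the control array, and rests on a dim spot. The bound for this probe equals that measured value, so it is no firm lower limit. The difference was -0.54 with normexp, -0.60 with lowess and -0.77 with spike-in scaling. Quantile normalization gave -0.90 and median scaling -0.92, so all of these fell short of 2-fold. Pax6os1, an RNA transcribed from the opposite strand near Pax6, was not well above background on either array. Of 8 other paired box genes, which mark other regions and tissues, Pax9 was the only gene measured on both arrays and was at -1.53 (-0.89 as its value nearest to 0). Pax3 and Pax7, of the dorsal neural tube, had no probe well above background.

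The Musashi genes were alike on both arrays. The brighter Msi1 probe, at chr5:115904030-115904089 (plus strand), gave 332 units on the control array against 464 on the miR-153 array, levels of -0.39 and -0.24 and a difference of 0.15 (standard error 0.21). The coding probe gave 189 and 300 units, levels of -1.20 and -0.88 and a difference of 0.33. Both lie within the SD between probes. With spike-in scaling the brighter probe was at 0.39.

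Msi2 was read at chr11:88152912-88152971 (minus strand), with 11599 units on the control array against 15385 on the miR-153 array. The levels were 4.74 and 4.81 and the difference was 0.07 (standard error 0.20), or at most 0.34 over the settings. A further probe, at chr11:88547287-88547346, carries an older locus name in the array files, but its RefSeq accession now belongs to Msi2. It was found after the values were seen and is not among the 13. It gave 49.6 units on the control array against 80.4 on the miR-153 array, a difference of 0.36, and the mean with the named probe was 0.22. The difference of Msi1 minus that of Msi2 was 0.07, and it changed sign over the settings (-0.22 to 0.07).

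Among 6 genes listed as targets or partners of the Musashi proteins, no common direction was seen. Numb, the Notch inhibitor whose translation Msi1 represses, was dim and at -0.10, or 0.14 under spike-in scaling. Pabpc1, encoding the poly(A)-binding protein, was at -0.82, and Cdkn1a, a brake on the cell cycle, at -2.00. Dcx (2.97) and Tubb3 (2.52) were higher, and both are also on the list of neuron markers. Of these 6 genes, 3 were past 2-fold, 2 upward and 1 downward, against 20.3% of all genes past 2-fold. The median of the 6 was -0.13, or 0.11 with spike-in scaling.

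Ordered by difference, the 8 measured markers were Prom1 (1.74), Cd24a (0.32), Fabp7 (0.19), Msi1 (0.15), Msi2 (0.07), Pax6 (-0.69), Vim (-0.72) and Nes (-0.95). A gap of 1.43 separated Prom1 from Cd24a and a gap of 0.76 separated Msi2 from Pax6. Both gaps exceeded the SD between probes of a gene. No other gap between neighbours was above 0.24, so the order within the middle 4 and within the lower 3 is not resolved. The ratio of Prom1 to Nes was 6.49-fold higher with miR-153, with a gap of 2.52 to 2.80 over 11 settings. The ratio of Fabp7 to Vim, both at the bright end, was 1.87-fold higher, with a gap of 0.73 to 1.01. A shift common to all genes cancels in such gaps, so settings that scale each array by a constant could not move them. The gap between Msi2 and Pax6 kept between 0.73 and 1.03, but with quantile normalization or lowess Vim (-0.06) lay inside it and nearer to Msi2 than to Pax6. The grouping into a middle 4 and a lower 3 thus did not hold under those settings.

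**Figure D2:**
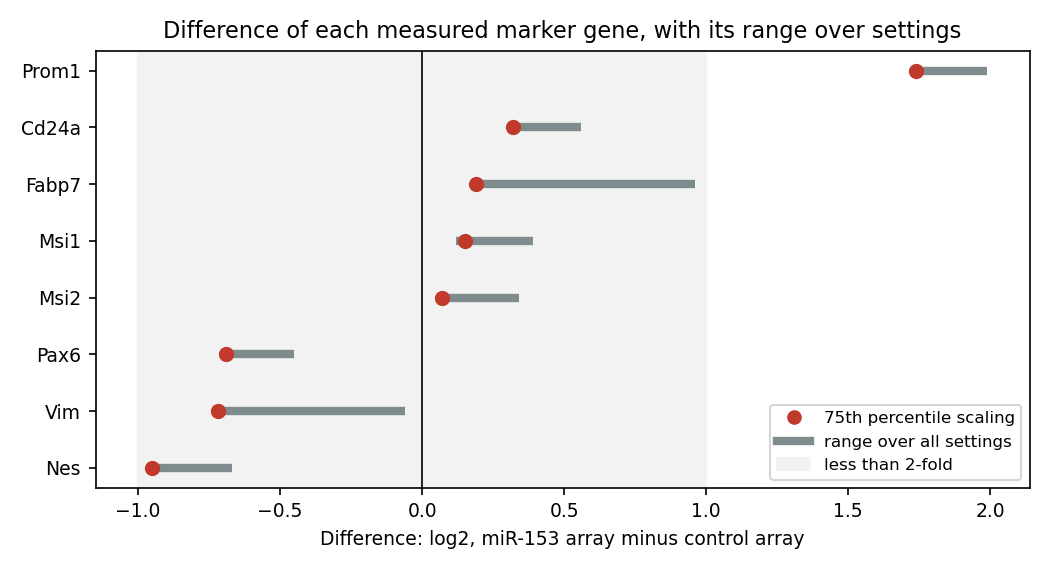
Difference of each of the 8 measured markers (log2, miR-153 array minus control array), with points for the scaling to the 75th percentile and bars for the range over all settings. Prom1 alone lies outside the shaded band of less than 2-fold, and the bars of Vim (-0.73 to -0.06) and Fabp7 (0.18 to 0.96) are the longest.

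**Figure D3:**
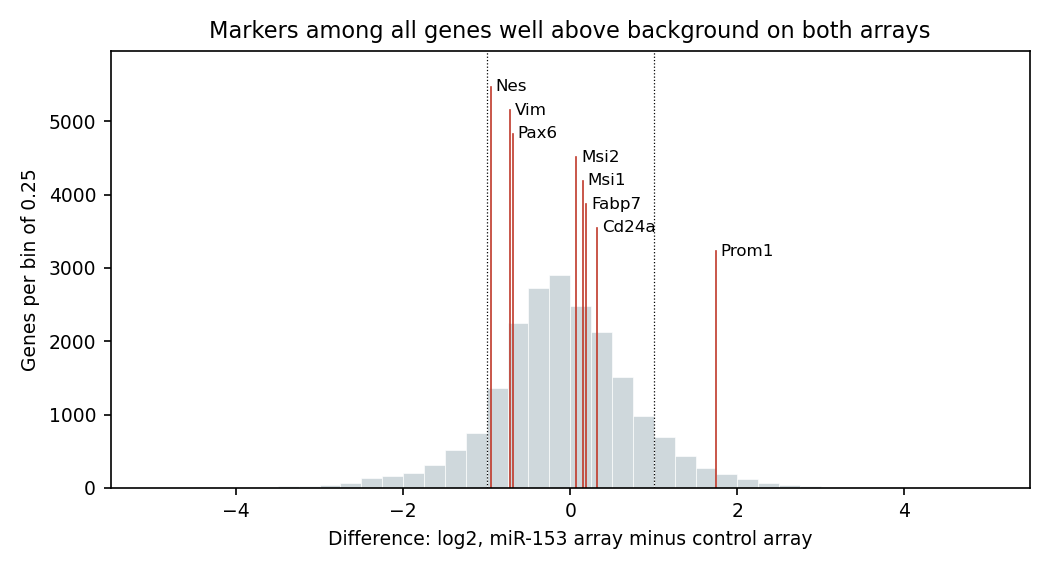
Histogram of the difference (log2, miR-153 array minus control array) over the 20490 genes well above background on both arrays, in bins of 0.25, with a line at each marker gene and dotted lines at 2-fold. The height of a line only separates the names. Nes, Vim and Pax6 lie on the left shoulder, 4 markers lie near the centre and Prom1 lies in the right tail.

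Other genes of radial glia and neural stem cells also went both ways. Of 20 on the list, all 20 were measured, 4 were past 2-fold upward and 1 downward, and the median was 0.20. Of all genes, 9.21% were past 2-fold upward and 11.1% downward, with a median of -0.11. Hopx, a marker of quiescent stem cells and outer radial glia, was at 2.70 (2.77 on a second probe). Hes5, a Notch effector that keeps radial glia from becoming neurons, was at 2.44. Sox1 was at 1.15, though 0.77 as the mean of its probes, and Emx2 at 1.05, or 0.75 with normexp. Tnc, an extracellular matrix gene of the stem cell niche, was at -2.14, with -2.46 on its other probe. Sox2, the general factor of neural progenitors, was at 0.29.

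Genes of cycling cells and of neurons lay farther from 0 on the same arrays. Both lists were chosen with earlier results of these data known, so their counts beside the share of all genes are descriptive only. All 12 genes of cycling cells were at least 2-fold lower, with a median of -2.33, where 11.1% of all genes were that much lower. The summed signal of the 12 was 64.5 times the 75th percentile with miR-153 against 282 times in the control. Mki67, present in all dividing cells, was at -2.37, Bub1 at -2.73, Ccnb2 at -2.52, and Ccnb1 and Aurka both at -2.51. Of 12 neuron markers, 8 were higher by 2-fold or more and 0 lower, against 9.21% and 11.1% of all genes. Celf3 (4.34) and Nsg2 (2.72) were among the 8, and the other 4 were above 0 but short of 2-fold, the lowest at 0.04. The median of the 12 was 1.58, and their summed signal was 74.8 (control) and 227 (miR-153). The filament genes Nefm (-1.74) and Nefl (-1.32), which are on another list, were lower. The part of these cells in the values of Nes, Vim, Pax6 or Cd24a was not tested.

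Oligodendrocyte lineage genes were past 2-fold upward in 5 of 10 cases and downward in 1, and their median was 1.08. Of all genes, 9.21% were past 2-fold upward and 11.1% downward, with a median of -0.11. Cnp (2.88), Mag (2.56) and Bcas1 (2.54), all genes of myelin-forming cells, led the list, and Cspg4, of oligodendrocyte precursors, was the lower at -2.00. The list did not divide by stage, since Mog, also of myelin, was at -0.04 and Pdgfra, also of precursors, at 0.71. Olig1 was at -0.38 and Olig2 at -0.57. The summed signal of the 10 genes was 86.1 in the control and 91.1 with miR-153. It was 24.6 and 43.9 without the brightest gene, Olig1, a factor of the whole lineage. Astrocyte markers, whose cells share Vim and Fabp7 with radial glia, were past 2-fold upward in 2 of 10 cases (4 with spike-in scaling) and downward in 2, and their median was 0.43. Of all 20490 genes, 2840 were past 2-fold upward with spike-in scaling. Among the astrocyte markers, S100b (1.44) and Apoe (1.02) were the higher and Slc4a4 (-2.51) and Hepacam (-1.55, or -0.78 as its value nearest to 0) the lower. Their summed signal was 106.8 in the control and 129 with miR-153, and 36.5 and 64.1 without the brightest gene, Aldoc, which encodes an enzyme of glycolysis.

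Mesenchyme and neural crest genes, from cells that also hold vimentin, were measured for 10 of 12. Of these 10, 5 were higher by 2-fold or more and 0 lower, against 9.21% and 11.1% of all genes. The median of the 10 was 0.69. With normexp 2 were past 2-fold and the median was 0.34. Pdgfrb (2.08, or 1.46 with normexp), Dcn (1.30), Ngfr (1.23, or 0.60 as its value nearest to 0) and Col1a1 (1.10, or 0.86 as its value nearest to 0) led them. Their summed signal was 6.97 in the control and 11.0 with miR-153, and Foxd3 was not well above background on either. Pluripotency genes were measured for 7 of 10, around a median of -0.55. Of these 7, 3 were lower by 2-fold or more and 0 higher, against 11.1% and 9.21% of all genes. Esrrb (-2.48), Klf4 (-1.60) and Dppa5a (-1.44) were the lower. Of 8 genes of blood and endothelium, 3 were measured, and of these Cd34 (-3.11, or -2.01 with normexp) was past 2-fold, while Ptprc, Hba-a1, Cdh5 and Aif1 had no probe well above background.

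**Figure D4:**
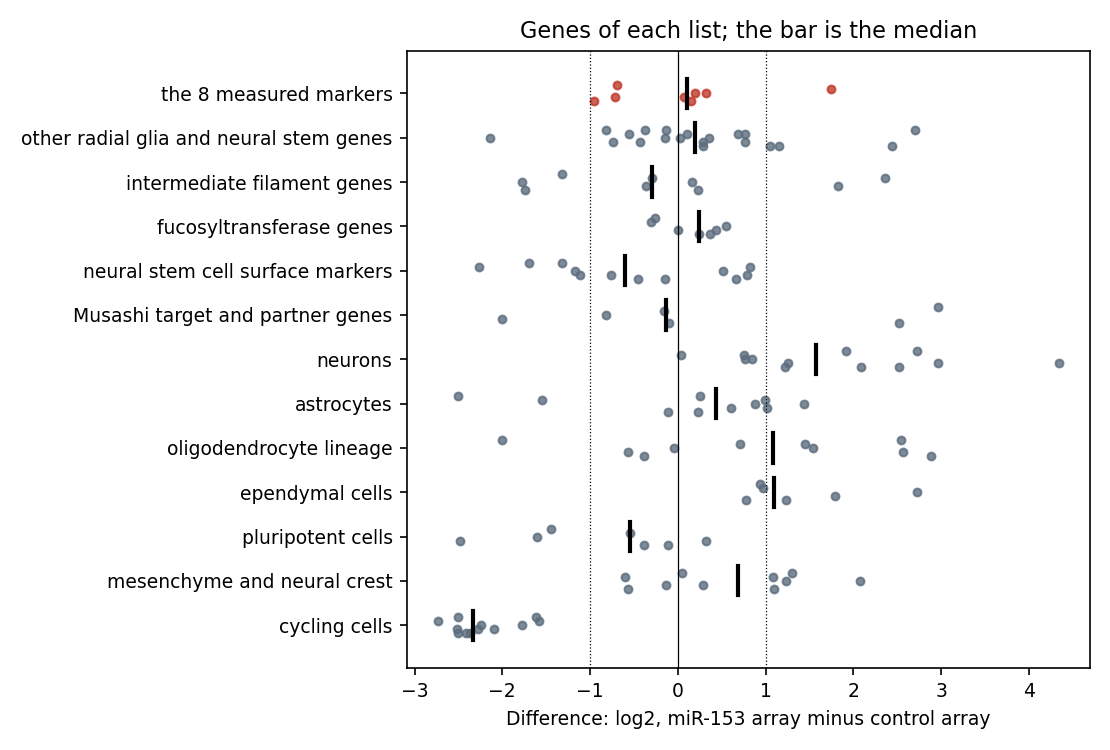
Difference (log2, miR-153 array minus control array) of each measured gene in the lists with at least 6 measured genes, with the 8 measured markers in red, a bar at each list's median and dotted lines at 2-fold. The markers centre near 0 (median 0.11), the genes of cycling cells all lie left of the lower line (median -2.33), and 8 of the 12 neuron markers lie right of the upper line (median 1.58).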

How the data were processed

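Total RNA was labelled with cyanine-3 and hybridised to 1-colour Agilent arrays, per the labels' protocols, with 1 array of control and 1 of miR-153 neurospheres. The authors deposited scanner intensity values. The submitters' processing notes name Agilent Feature Extraction, version 10.7.3.1, and the processed signal is background-subtracted and linear, per the file headers. A series table holds their processed intensity values too. Comparison with the scanner values showed that its columns are the processed signal divided by 381 (control) and 485 (miR-153), linear and neither centred nor inverted, with medians of 0.0662 and 0.0614.

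Here log2 of the processed signal was set relative to the 75th percentile of 59305 non-control spots. Spots with an outlier flag (229) were left out and repeat spots averaged. Accessions were matched to RefSeq symbols (GRCm38, names only) for 26296 probes (47.2%). The brightest probe well above background on both arrays stood for a gene. A probe well above background on 1 array gives a bound, set against the higher of its own level on the other array and the lowest level well above background there (-4.34 control, -4.86 miR-153). Where its own level is the higher, as for the dimmer Pax6 probe, the bound is the measured difference. At least 2-fold is a rule of size, not a test. The standard error of a difference combines the error estimates of the scanner software and leaves out differences between cultures. The number of arrays limits the precision.

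The markers and 15 further lists were chosen with earlier results of these data known. The counts of a list beside the share of all genes are therefore descriptive only. Named genes were all markers, up to 4 genes per list past 2-fold and farthest from 0, and 9 relatives, partners or cell markers. One gene of a list was left out and is not reported here. Itgb1, Nefl, Emx2, Fabp3, Pabpc1, Egfr, Vcam1, Olig1, Olig2, Mog, Pdgfra, Aldoc, Pax6os1 and the genes not well above background were named after their values were seen. The 10 alternatives were normexp (limma 3.58.1, R 4.3.3, offset 50), quantile, median, spike-in and lowess scaling, the series table, the mean of probes, outlier spots kept, no filter on dim probes and bright probes only. The steps were tested on simulated data (Python 3.11.15, pandas 2.3.3). The simulated noise was below that of the repeat spots here, and all probes of a changed gene had the same difference. This checks the steps and not the precision of the differences above.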

Additional observations from a re-analysis of the deposited data

How the results depend on the processing

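All 8 measured markers kept their sign under every one of the 10 alternatives that could give them a value, and Prom1 alone stayed past 2-fold. Many of these settings could hardly move a marker. Median scaling, spike-in scaling and the series table add the same constant to every difference. Such a constant cancels in the ratio of any gene to another. The settings on outlier spots, dim probes, bright probes and the mean of probes returned the main value for genes with a single probe. Pax6 and Msi1 gave no value with bright probes only, and Fut4 gave none with any filter on dim probes. Vim moved from -0.72 to -0.06 with quantile normalization and to -0.06 with lowess, and Fabp7 from 0.19 to 0.67 and 0.96. With no filter on dim probes, 1 marker was at least 2-fold lower, the dim Fut4. Genes at least 2-fold higher numbered 1887, against 1199 with normexp, 2840 with spike-in scaling, 3607 with no filter and 862 with bright probes only. Those lower numbered 2265, against 1532 with normexp, 1537 with spike-in scaling, 4371 with no filter and 1043 with bright probes only. The settings with no filter and with bright probes only test more or fewer genes, and spike-in scaling added 0.24 to every difference. The cause of the lower counts with normexp was not tested. Of 48 named genes of other lists, 46 kept their sign, and Gfap (-0.02 with normexp) and Numb (0.14 with spike-in scaling) did not. No paired analysis was possible because each group has 1 array. Dim signals limit Fut4 and the dimmer Pax6 probe.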
